A study of Bombyx mori with 12 samples.

Results

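PTSP, Myosuppressin and FMRFamide are silkworm genes for peptides that lower ecdysteroid output of the prothoracic gland, and BMSR, BRFaR and SPR are the genes for receptors of such peptides. These 6 genes were followed across 12 one-colour arrays of Bombyx mori larval tissues. They were found by sequence name, with a _cds suffix removed where there was one. They are 6 of 341 genes to which the array gives a gene name, among 32372 sequence names in all, and 16 probes represent them. PTSP, Myosuppressin, FMRFamide and BRFaR had a pair of probes each, while BMSR and SPR had 4 each. The rule that picked them uses names and no measured value, but earlier results of these data were known when they were chosen.

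The prothoracic gland makes the steroid that insects turn into the moulting hormone, and its output is raised by tropic hormones and lowered by inhibitory peptides. PTSP encodes the prothoracicostatic peptides, Myosuppressin encodes a decapeptide first known for inhibiting visceral muscle, and FMRFamide encodes several short FMRFamide-related peptides. BMSR is the myosuppressin receptor, BRFaR the receptor of the silkworm FMRFamide-related peptides, and SPR a receptor of prothoracicostatic peptides that is named after the Drosophila sex peptide receptor. All 3 receptors are G protein-coupled receptors. In the silkworm, FMRFamide-related peptides reach the gland through neurons that innervate it, whereas myosuppressin and prothoracicostatic peptides are made in the brain and other sources and can act as hormones.

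All larvae were of the Kinsyu x Showa commercial hybrid, reared on mulberry leaves at 25 °C, and every array received labelled material from 200 ng of total RNA. The joined corpora cardiaca and corpora allata (CC-CA), a neurohemal and juvenile hormone-producing gland behind the brain, were taken on day 2 of the 4th instar for 2 arrays from independent experiments. On the same day, brain, prothoracic gland, midgut, fat body, salivary gland, Malpighian tubule and epidermis were taken for 1 array each. The other groups were older, again with 1 array each: the CC-CA of day 4 in the 5th instar, and testis and ovary of day 10 in that instar, when larvae had been wandering for 3 days. No genotype or treatment separated the groups, and the labels do not say how many animals were pooled.

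Values are log2 signals relative to the 75th percentile of the array, so 0 is the level of that percentile and levels of different probes cannot be ranked against each other. "Above background" means that the scanner software marked the probe as well above background on that array. The percentile itself lay between 1402 intensity units in fat body and 5827 in ovary, and 60.4% to 78.6% of spots were above background. Of the 16 probes, 15 were above background on at least 1 array and one SPR probe on none. Between 2 (testis) and 10 (5th instar CC-CA) of the 16 were above background on an array. The differences between the paired CC-CA arrays had an SD of 0.61 on the log2 scale over 29160 probes, and tissues are called separated below only where levels lay at least 1.22 apart. The number of arrays limits the precision, since every group but the 4th instar CC-CA has no replicate.

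The tissue labels were read against marker genes. The CC-CA markers BmJHAMT, AKH-1 and AKH-2 (3 of 6 names sought were on the array) had a summed linear level of 80.2 and 87.7 on the 4th instar CC-CA arrays and 147 on the 5th instar array, against 0.00911 to 0.163 elsewhere. The brain markers eclosion hormone, sulfakinin and corazonin (3 of 5 names) summed to 21.6 in brain. The 6 cuticle genes listed for epidermis summed to 208 there, with 3 of the 6 above background. The other 3 were highest elsewhere, BmorCPT2 (-2.09) and BmorCPT3 (-2.18) in fat body and BmorCPT4 (-0.62) in ovary. Midgut, Malpighian tubule, fat body, testis and ovary had 1 marker each, and each was highest in its own tissue. The testis and ovary markers were cuticle protein genes, BmorCPR100 and BmorCPR92. Because the lists were chosen with earlier results of these data known, the marker levels are not an independent check of the labels. None of the names sought as prothoracic gland or salivary gland markers was on the array, so those labels could not be checked.

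PTSP was a brain transcript on these arrays. Its level was 0.31 in brain and -5.82 in the 5th instar CC-CA, the only groups in which it was above background. On the other 10 arrays the probe gave -9.41 to -6.91, and the 4th instar CC-CA arrays (-7.94 and -8.74) lay among the dim tissues. Brain was at least 40.2-fold above every other group on this probe, a bound set by the fat body, and at least 43.0-fold on the second PTSP probe. Against the 5th instar CC-CA the brain was 70.1-fold higher. In tissue samples, fewer cells of a type and less RNA per cell cannot be told apart.

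Myosuppressin was detected in more tissues than PTSP or FMRFamide. The level was 2.96 in brain, 1.13 in midgut, -0.79 in ovary and -0.92 in the 5th instar CC-CA. It was -2.84 and -2.50 in the 4th instar CC-CA and -4.05 in prothoracic gland. In fat body, epidermis, Malpighian tubule, salivary gland and testis the probe was not above background. Brain was 3.55-fold above midgut and 13.4-fold above ovary, and midgut was 3.78-fold above ovary, each gap wider than the spread of the CC-CA pair. Ovary and the 5th instar CC-CA differed by 0.13 and were not separated.

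The second Myosuppressin probe gave the same order for the 5 groups just named first, with brain 3.47-fold above midgut. It was not above background in prothoracic gland, where it read -7.96. The low prothoracic gland level of Myosuppressin is therefore seen by 1 of 2 probes. In midgut, 0 of the 3 brain markers were above background and their summed level was 0.0107. In ovary, sulfakinin (-6.89) and corazonin (-6.11) were above background and the summed level was 0.0278. Their part in the Myosuppressin level of the ovary was not tested.

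FMRFamide was again highest in brain, at -1.15. Epidermis, at -5.60, was the only other group above background on this probe, and the remaining 10 arrays read -9.46 to -6.96. Brain was at least 14.6-fold above every other group, a bound set by the fat body, and 21.8-fold above epidermis. The second probe gave -0.83 in brain, and at least 18.3-fold over every other group. On that probe epidermis read -8.43 and was not above background, so the epidermal FMRFamide signal rests on 1 of 2 probes.

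All 3 peptide genes were thus at least 2-fold higher in brain than in every other group, with both of their probes. Of all 38131 probes above background in any group, 2.70% met the same condition for brain. With 1 brain array, this is a description of that library and carries no test.

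**Figure D1:**
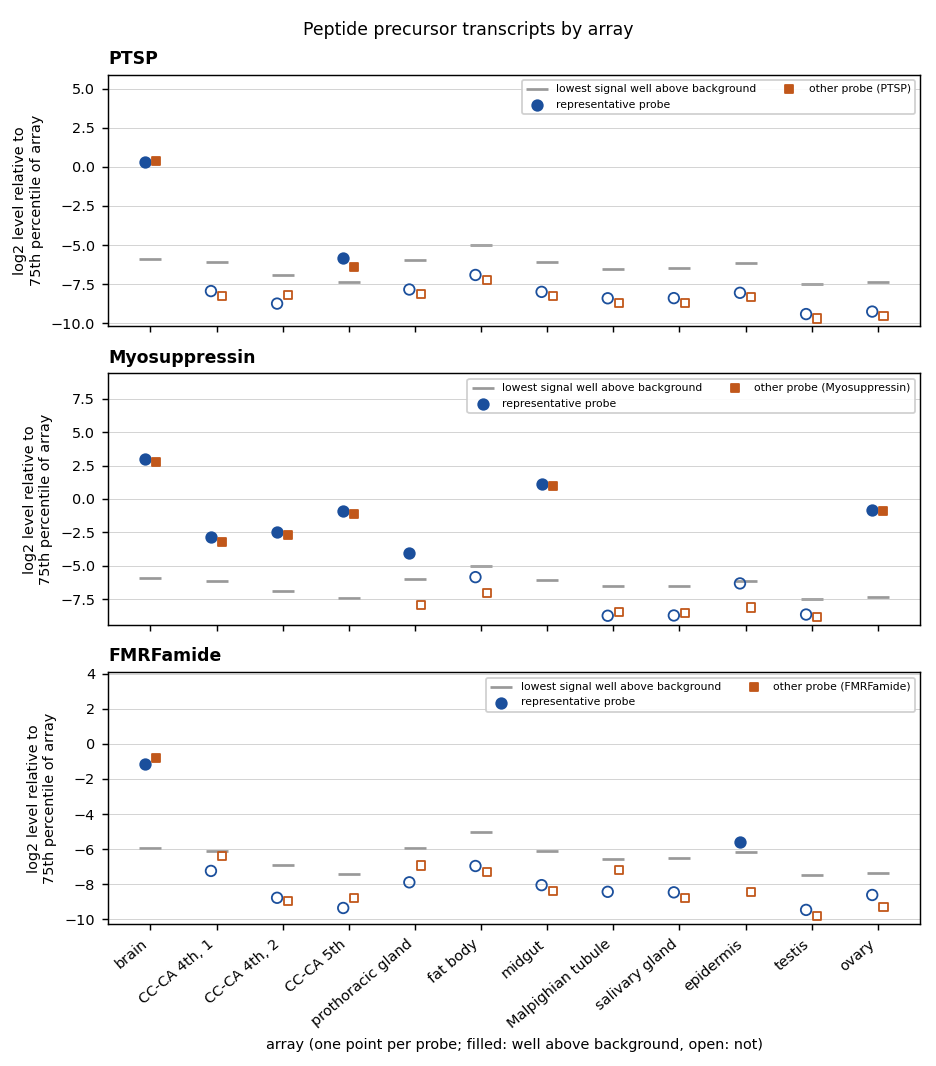
Log2 signal relative to the array's 75th percentile (vertical axis) of each probe of PTSP, Myosuppressin and FMRFamide on the 12 arrays, grouped by tissue and stage (horizontal axis). Filled points are above background, open points are not, and dashes mark each array's lowest signal above background. Brain is the highest group for all 3 genes, and Myosuppressin is also above background in midgut, ovary and CC-CA.

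BMSR, the myosuppressin receptor, was the most widely detected of the receptor genes. Its brightest probe was above background in all 11 groups. Levels were -0.19 in prothoracic gland, -0.62 in midgut and -0.68 in Malpighian tubule. They were -2.79 in fat body, -3.29 in the 5th instar CC-CA, -3.48 and -3.51 in the 4th instar CC-CA, -3.76 in brain and -3.95 in ovary. Epidermis (-5.13), salivary gland (-5.52) and testis (-6.08) were lowest. Prothoracic gland, midgut and Malpighian tubule differed by at most 0.49 and were not separated from each other, whereas Malpighian tubule was 4.30-fold above fat body, a gap of 2.10.

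The same 3 tissues were the highest for BMSR on all 4 probes. The other 3 probes put Malpighian tubule first (-3.67, -3.77 and -3.77), then midgut (-3.92, -4.04 and -4.46) and prothoracic gland (-4.15, -4.41 and -4.62). On those probes, too, the gaps between the 3 tissues were below 1.22. The third of them was not separated from the next group either, with gaps of 0.87, 0.22 and 0.11. Fat body read -7.20, -4.88 and -5.22 on those probes and was not above background. The probes disagreed on the salivary gland. Both probes of the sequence named BMSR_cds read -4.63 and -4.73 there, close to the prothoracic gland and above background, whereas the second probe named BMSR was not above background.

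BRFaR was highest in epidermis, which forms the cuticle. The level there was -2.02, against -4.53 in fat body and -5.90 in the 5th instar CC-CA. The 4th instar CC-CA read -6.29, not above background, and -6.02, above background. In all other groups, prothoracic gland (-7.87) and brain (-5.68) included, the probe was not above background. Epidermis was 5.71-fold above fat body, and 6.38-fold on the second probe, which also read -2.02 in epidermis. On both probes it was at least 2-fold above every other group, as were 4.05% of all probes for epidermis. No other group on the slide of the epidermis array was above background for BRFaR, and tissue and array cannot be told apart with 1 epidermis array.

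SPR was not above background in most groups, and its probes did not give the same order. The brightest SPR probe, of the sequence named SPR_cds, was above background in brain (-4.58), prothoracic gland (-4.65), Malpighian tubule (-5.10) and ovary (-6.98). The first 3 of these were not separated. Fat body (-5.55), epidermis (-6.97) and the first 4th instar CC-CA array (-6.54) read no lower than ovary but were not above background. The lowest signal above background was lower in ovary (-7.35) than on those arrays. The second SPR_cds probe was above background in Malpighian tubule (-4.80) and prothoracic gland (-5.54), and not in brain (-6.00). A probe of the sequence named SPR was above background in Malpighian tubule (-4.55), epidermis (-5.06) and prothoracic gland (-5.36), and its partner nowhere. Prothoracic gland and Malpighian tubule were thus the groups above background on all 3 SPR probes that detected anything, and the highest group was not settled.

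**Figure D2:**
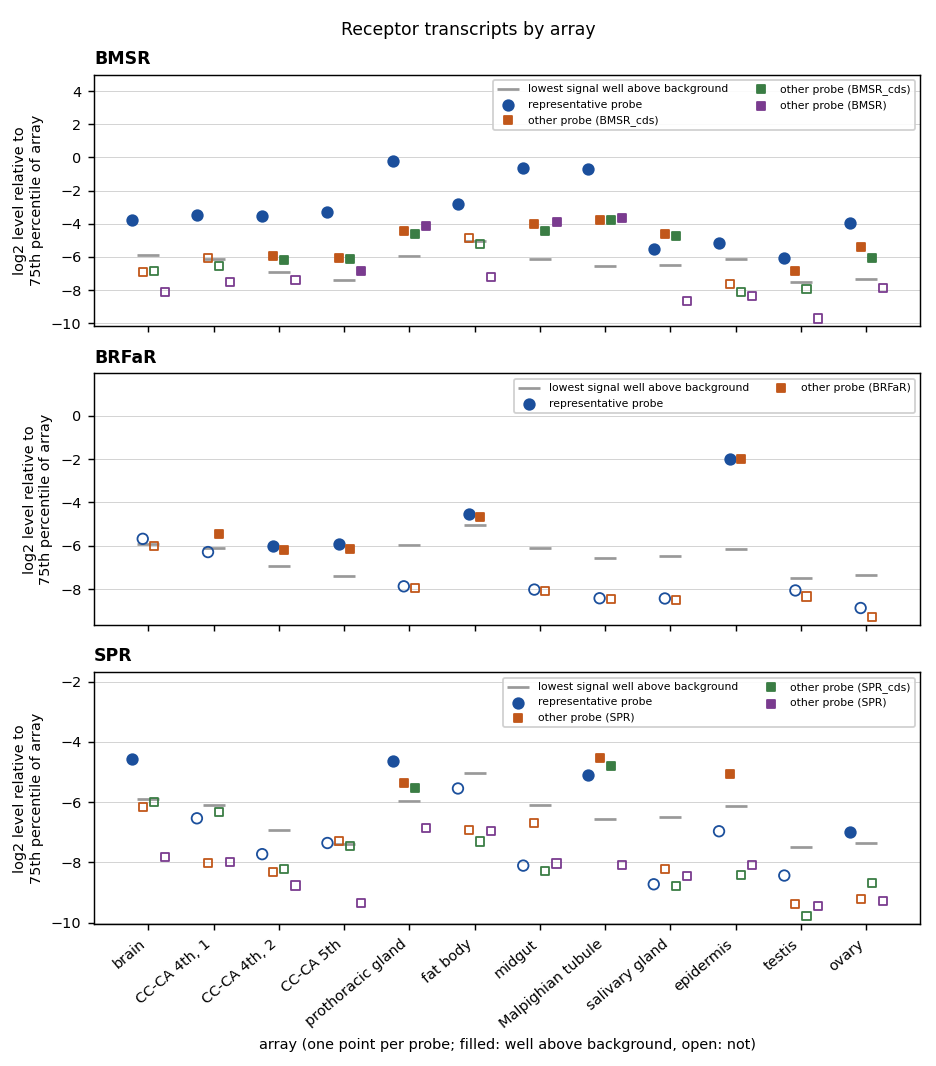
Log2 signal relative to the array's 75th percentile (vertical axis) of each probe of BMSR, BRFaR and SPR on the 12 arrays, by tissue and stage (horizontal axis), with open points for signals not above background and dashes at each array's lowest signal above background. Prothoracic gland, midgut and Malpighian tubule stand highest for BMSR and epidermis for BRFaR, while the SPR probes lie near background in most groups.

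Peptide and receptor transcripts were set side by side, counting a gene where any of its probes was above background. Of all spots, 60.4% to 78.6% were above background on an array, with 66.8% in brain, 69.4% in epidermis and 63.9% in prothoracic gland. The lowest signal above background ran from -7.50 in testis to -5.02 in fat body. A group not counted can therefore read higher than one counted. Myosuppressin was detected in 6 groups and BMSR in all 11, so every group with the peptide had to have the receptor as well. BMSR reached all 11 on its brightest probe only. Its other 3 probes were above background in 7, 6 and 4 groups, and none of them in brain. PTSP was detected in 2 groups and SPR in 5, with brain in common, where the receptor signal came from 1 of 4 probes. FMRFamide was detected in 2 groups and BRFaR in 4, with epidermis in common, where the peptide signal came from 1 of 2 probes. In brain, the BRFaR probes read -5.68 and -5.99 and were not above background. The 5th instar CC-CA, which was counted, read -5.90 and -6.14 on the same probes. In the prothoracic gland, which these peptides act on, all 4 BMSR probes and 3 of 4 SPR probes were above background, and neither BRFaR probe was. Of the 3 peptide genes, PTSP and FMRFamide were not above background there on either probe.

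The CC-CA of the 4th instar was compared with brain in a limma fit over all 11 groups. Because only the 4th instar CC-CA has a replicate, each single array is assumed to vary like that pair. Differences below are CC-CA minus the other group, with the standard error (SE), 2 arrays against 1, and Benjamini-Hochberg adjusted p over all probes tested, called below 0.05. Of 5 members tested against brain, 4 were called, all lower in CC-CA. Across all 30961 probes tested, 24.6% were called and 10% were called lower in CC-CA. PTSP, FMRFamide and SPR entered this test only through their brain signal, which largely fixed their side.

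PTSP differed by -8.65 ± 0.54 (limma adjusted p = 1.03e-05), and brain was at least 113.5-fold higher. Myosuppressin, above background in both tissues, differed by -5.62 ± 0.49 (limma adjusted p = 5.33e-05), which is 49.3-fold higher in brain. FMRFamide differed by -6.85 ± 0.66 (limma adjusted p = 9.42e-05), with brain at least 41.3-fold higher. These 3 peptide genes were also called on their second probes. SPR differed by -2.56 ± 0.60 (limma adjusted p = 0.0128), at least 3.84-fold, on the 1 SPR probe tested.

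BMSR did not pass the test between CC-CA and brain, with a difference of 0.27 ± 0.48 (95% interval -0.83 to 1.37, limma adjusted p = 0.755). For BRFaR the brightest probe was above background on only one of the CC-CA arrays and not in brain and was not tested. The second probe differed by 0.17 ± 0.53 (limma adjusted p = 0.868).

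Against the prothoracic gland, 2 of 3 members tested were called, both lower in CC-CA. Of all 30149 probes tested, 21.1% were called and 4.05% were called lower in CC-CA. BMSR was 9.85-fold higher in prothoracic gland than in 4th instar CC-CA, a difference of -3.30 ± 0.48 (limma adjusted p = 0.00107). It was lower in CC-CA on all 4 probes. The other 3 differed by -3.30, -1.75 and -1.59 (limma adjusted p = 0.0011, 0.035 and 0.0486). As bounds, prothoracic gland was at least 5.17-fold, 2.89-fold and 3.01-fold higher on them. These 3 probes entered the test through prothoracic gland alone, which largely fixed their side. SPR was at least 3.66-fold higher in prothoracic gland (-2.49 ± 0.60, limma adjusted p = 0.0164). SPR was also called on one further probe (-2.81 ± 0.49, limma adjusted p = 0.00293) and not on the third probe tested (-1.74 ± 0.74, limma adjusted p = 0.149). SPR passed the filter only through its prothoracic gland signal.

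Myosuppressin differed between CC-CA and prothoracic gland by 1.39 ± 0.49 (limma adjusted p = 0.0871), 2.61-fold higher in CC-CA, and did not pass. Its second probe, not above background in prothoracic gland, was at least 8.07-fold higher in CC-CA (5.02 ± 0.50, limma adjusted p = 0.000167). Both probes put CC-CA higher, and they disagreed on the size and on the call. BRFaR could be tested on its second probe only, which passed the filter through CC-CA alone and was at least 1.10-fold higher there (2.12 ± 0.53, limma adjusted p = 0.0204). Of the 6 cuticle genes listed for epidermis, both genes tested were highest in epidermis and were also called higher in CC-CA. BmorCPG13 was higher by 2.47, its signal in prothoracic gland not above background, and BmorCPT1 by 2.43. The 6 summed to 0.582 and 0.724 in the 4th instar CC-CA and 0.14 in prothoracic gland. The other 4 were not above background in either tissue. The part of these cuticle transcripts in the BRFaR difference was not tested. PTSP and FMRFamide were not above background in either tissue and were not tested.

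Between the CC-CA stages, 1 of 4 members tested was called, lower in the 4th instar. Of all 32125 probes tested, 5.75% were called and 1.26% were called lower. PTSP read -7.94 and -8.74 in the 4th instar, not above background, and -5.82 in the 5th, a difference of -2.52 ± 0.54 (limma adjusted p = 0.0298). As a bound, the 5th instar was at least 1.62-fold higher. The second PTSP probe differed by -1.78 ± 0.48, at least 1.06-fold, and did not pass (limma adjusted p = 0.076). With a floor under dim signals the difference of the first probe was -0.70 (limma adjusted p = 0.67). PTSP entered this test only through its 5th instar signal.

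Myosuppressin was measured on all 3 CC-CA arrays. Both 4th instar arrays, at -2.84 and -2.50, lay below the 5th instar array, at -0.92. The difference of -1.75 ± 0.49, 3.36-fold higher in the 5th instar, did not pass (95% interval -2.87 to -0.63, limma adjusted p = 0.0872), nor did that of the second probe (-1.84 ± 0.50, limma adjusted p = 0.0788). With robust moderation of the spread the first probe was called (limma adjusted p = 0.0123). Of the brain markers, eclosion hormone was not above background on any of the 3 CC-CA arrays. Sulfakinin was above background only in the 5th instar (-7.10), and corazonin read -2.08, -2.03 and -1.19. The summed level of the brain markers was 0.244 and 0.249 in the 4th instar and 0.446 in the 5th, and their part in the PTSP and Myosuppressin differences was not tested.

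The receptor genes showed smaller stage differences. BMSR differed by -0.20 ± 0.48 (95% interval -1.30 to 0.89, limma adjusted p = 0.868) and BRFaR by -0.26 ± 0.49 (95% interval -1.37 to 0.86, limma adjusted p = 0.829). Both intervals include a level lower by 1.22 in the 4th instar, the gap used to separate tissues. This BRFaR probe was above background on only 1 of the 4th instar arrays and entered the test through the 5th instar alone. The second BRFaR probe, above background on all 3 CC-CA arrays, lay the other way (0.32 ± 0.53, limma adjusted p = 0.799). FMRFamide and SPR were not above background at either stage and were not tested. Of the 6 cuticle genes listed for epidermis, 3 were tested between the stages and all 3 were called. BmorCPT1 (3.74, limma adjusted p = 0.00341) and BmorCPG13 (2.79, limma adjusted p = 0.0267) were higher in the 4th instar, and BmorCPT2 (-2.41, limma adjusted p = 0.0229) lower, with its 4th instar signal not above background. In epidermis, too, BmorCPT2 was not above background (-6.97), and its highest level was in fat body (-2.09). The 6 summed to 0.582 and 0.724 in the 4th instar and 0.0954 in the 5th, and BmorCPR40, BmorCPT3 and BmorCPT4 were not above background at either stage. Their part in the stage differences of the members was not tested.

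**Figure D3:**
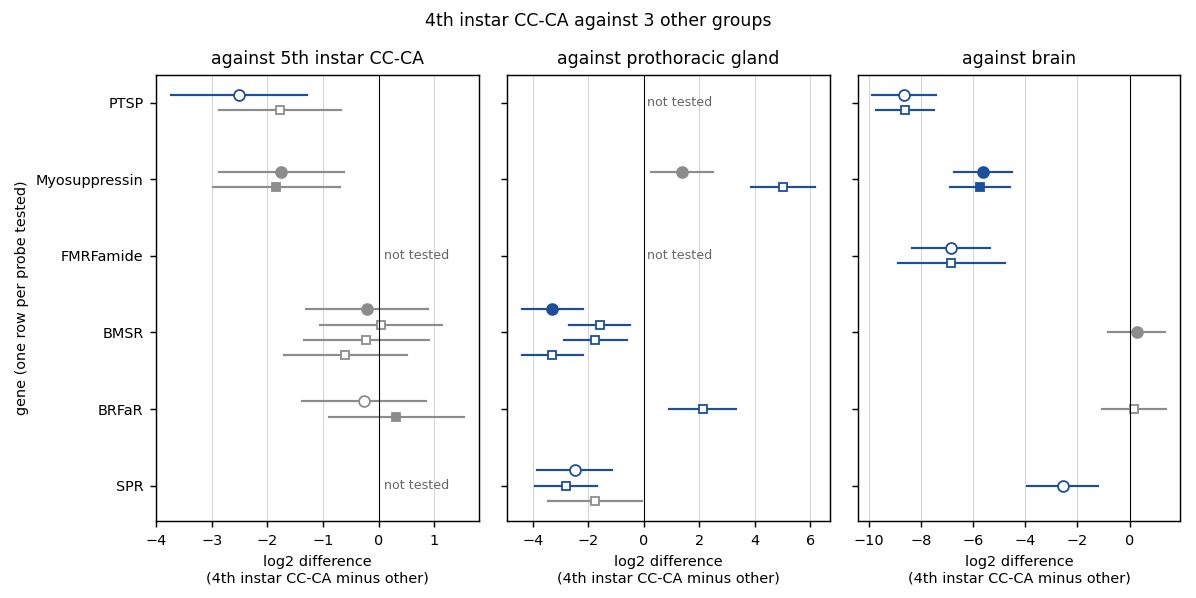
Log2 difference of the 4th instar CC-CA (mean of 2 arrays) minus 5th instar CC-CA, prothoracic gland or brain for each tested probe of the 6 genes, with 95% intervals from the limma fit; circles are the brightest probe of a gene and squares the others, blue marks called differences and grey the rest, and open symbols mark a group not above background. Differences of PTSP, Myosuppressin and FMRFamide against brain lie furthest below 0, and those of BMSR against prothoracic gland lie below 0 on all 4 probes.

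Other neuropeptide genes were read in the same way, from a list of 46 names of which 26 were on the array. Against brain, the 22 tested had a median of -5.72, against -0.17 over all probes tested. In 4th instar CC-CA, 17 of the 22 were called lower (10% of all probes) and 4 higher (14.6% of all probes). Of these, 13 of the 17 and 2 of the 4 were not above background in the dimmer tissue (CAPA on 1 of 2 CC-CA arrays) and entered the test only through the brighter one, which largely fixed their side. Among the 7 genes above background in both tissues, 4 were called lower and 2 higher. The 3 genes with the largest fitted differences were eclosion hormone (EH), which triggers ecdysis behaviour, IMFamide and sulfakinin, all not above background in CC-CA. Brain was at least 1057-fold, 329-fold and 81.3-fold higher for them. The genes called higher in CC-CA were AKH-1 (844-fold) and AKH-2 (351-fold), the adipokinetic hormones of the corpora cardiaca, and pburs (at least 355-fold) and bursicon (at least 2.84-fold), the subunits of the cuticle-tanning hormone. Of the 23 peptide genes above background anywhere, 11 were highest in brain, 10 of them by at least 2-fold. Of all probes above background in any group, 2.70% were highest in brain by at least 2-fold.

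Against prothoracic gland, 7 of 10 tested peptide genes of the list were called higher in CC-CA and 1, PDF, lower, with a median of 4.62 against -0.24 over all probes. Over all probes, 17% were called higher and 4.05% lower. All 7 entered the test through CC-CA alone and PDF through prothoracic gland alone, so their sides were largely fixed. As bounds, CC-CA was at least 2441-fold higher for AKH-1, 2444-fold for AKH-2 and 366-fold for pburs, and prothoracic gland at least 1.51-fold higher for PDF. Orcokinin (-3.70), SIFamide (-5.03) and PDF (-5.92) were the 3 of the 26 peptide genes on the array that were above background in prothoracic gland. Of all spots, 63.9% were above background there. Orcokinin encodes peptides that stimulate the gland in the silkworm. Between stages, all 14 tested peptide genes lay below 0 (median -1.46, against 0.03 over all probes), that is, toward the 5th instar. Of these, 5 entered the test through the 5th instar array alone, as PTSP did. The other 9, measured at both stages as Myosuppressin was, had a median of -1.04. SIFamide was the 1 gene called (-3.14 ± 0.52, limma adjusted p = 0.011), against 5.75% of all probes.

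Other neuropeptide receptor genes numbered 46 on the array, of which 40 were above background in some group and 12 in prothoracic gland, and 0 had their highest level there. Of all spots, 63.9% were above background in prothoracic gland. Of all 38131 probes above background in any group, 0.58% were at least 2-fold higher there than in every other group. Between stages 1 of 19 tested was called, DpHR (2.84, higher in the 4th instar), with a median of -0.05. Of all probes, 5.75% were called between stages. Against prothoracic gland, 8 of 18 were called, all higher in CC-CA (median 1.22), and 5 of these 8 entered the test through CC-CA alone. Of all probes, 21.1% were called and 17% were called higher in CC-CA. DpHR was at least 9.76-fold and BNGR-A6-A at least 3.85-fold higher in CC-CA, and BNGR-A1, above background in both tissues, was 16.9-fold higher. Against brain, 13 of 27 were called lower, 10 of them not above background on at least 1 CC-CA array, and 4 higher, 3 of them not above background in brain. For all probes these shares were 10% lower and 14.6% higher. Brain was at least 27.5-fold higher for BNGR-A8, 21.4-fold for BNGR-A13 and 4.28-fold for BNGR-A7. CC-CA was at least 9.47-fold higher for DpHR, 3.74-fold for BNGR-A6-A and 10.3-fold for BNGR-A2.

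Of 41 names sought among other regulators of the prothoracic gland, ecdysteroid synthesis and hormone response, 5 were on the array, and no ecdysteroid synthesis gene was among them. Against brain, 4 of 5 were called lower in CC-CA: corazonin (-5.25), orcokinin (-4.53), DHR (-2.48) and the receptor AKHR, which was not above background in CC-CA and at least 1.92-fold higher in brain. Of all probes, 10% were called lower. Against prothoracic gland 1 of 4 was called, corazonin (at least 14.9-fold higher in CC-CA and not above background in the gland), and between stages 0 of 4 were called by limma (1 at an unadjusted p under 0.05). The shares of all probes called in these comparisons were 21.1% and 5.75%.

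Among 179 named genes above background on at least 3 arrays, those whose group means ran most like each member were listed by Pearson's r over the 11 groups. These are descriptions, since the groups share arrays and a single high tissue can set r. For PTSP they were IMFamide (0.964), sulfakinin (0.924) and allatostatin_A (0.899), and for FMRFamide ITG-containing_peptide (0.909), orcokinin (0.877) and sulfakinin (0.872), each with its highest level in brain. For Myosuppressin they were CAPA (0.798), NPF1 (0.764), highest in midgut, and orcokinin (0.759). BRFaR ran most like the cuticle protein genes BmorCPR50 (0.898), BmorCPG1 (0.883) and BmorCPR59 (0.874), all highest in epidermis. BMSR ran like jhbp-wds30639 (0.796), LGR (0.778) and JHEH0 (0.68). SPR had no named gene above 0.581.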

How the data were processed

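The deposited scanner files hold spot intensity from Cy3 arrays, 1 array a file. Per the file headers, Agilent Feature Extraction 9.5.3.1 made the processed signal (background-subtracted intensity, with small positive values put in for dim spots), which was not normalised between arrays. A deposited value table was also used. Column by column it is the processed signal, on a linear scale, over a single constant lying between percentiles 28.7 and 32.9 of the array. The meaning of that constant, and so the centring, is unknown here. Its column medians were 10.4 and 10.6 (4th instar CC-CA), 11.1 (5th instar CC-CA), 7.93 (brain), 9.43 (prothoracic gland), 7.33 (midgut), 7.26 (fat body), 10.3 (salivary gland), 8.81 (Malpighian tubule), 7.82 (epidermis), 5.50 (testis) and 7.71 (ovary).

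For this report log2 of the processed signal minus each array's 75th percentile over the 43803 non-control spots (of 45220) was used. Outlier-flagged spots were dropped, replicate spots were averaged by probe, and 224 of 42564 probes that lacked a value somewhere were removed. A gene is represented by its probe with the highest mean level over the 12 arrays, and its other probes are given beside it. Where the dimmer group was not above background, a fold is a bound ("at least"): the brighter group's mean over a dim-group mean in which each array contributes its lowest signal above background, or the probe's own if that is higher. Groups were fitted with R 4.3.3 and limma 3.58.1 (jsonlite 2.0.0 and the data.table package, version 1.17.8, read the files), with 11 group means over 12 arrays, 1 residual degree of freedom and a prior of 7.41, after a test on simulated data. A comparison tested the probes that were above background throughout at least 1 of its groups. Figures were drawn with matplotlib 3.10.9, pandas 2.3.3 and Python 3.11.15.

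The arrays lay on 3 slides of 4. Brain, fat body, prothoracic gland and CC-CA replicate 1 shared a slide, as did midgut, salivary gland, 5th instar CC-CA and CC-CA replicate 2. Epidermis, Malpighian tubule, testis and ovary lay on a slide with no CC-CA array, so there tissue and slide cannot be told apart. Alternatives changed the background correction (normexp, offset 50), the scaling, the filter or floor on dim signals, the moderation and the choice of probe. The intended mean-signal column was not used, and normexp was run on the median signal. The genes and lists were chosen with earlier results of these data known. Named genes were the 6 members, the 3 most similar named genes of each, and list genes with the 3 largest called differences in each direction (bursicon, the cuticle genes listed for epidermis and the peptide genes detected in prothoracic gland were added after their values were seen). No sequences were analysed here.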

Additional observations from a re-analysis of the deposited data

How the results depend on the processing

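Against brain, PTSP, Myosuppressin and FMRFamide were called in 9 of 9 settings, and so was BMSR against prothoracic gland. SPR was called in 8 of 9 against prothoracic gland (not with quantile normalization, 0.0665) and 7 of 9 against brain (not with quantile normalization, 0.0667, or the mean over probes, 0.0787). Myosuppressin was called against prothoracic gland in 4 of 9 (adjusted p from 0.00151 to 0.25). The count of members called between CC-CA stages was 0 with quantile normalization, 0 with a floor, 0 when all tested probes had to be called, and 2 (PTSP and Myosuppressin) with robust moderation. The count against prothoracic gland was 1 (BMSR) with quantile normalization and 1 when all tested probes had to be called. PTSP lost its stage call with normexp (-0.81, adjusted p = 0.175), quantile normalization (0.187), a floor (0.67) and a variance trend (0.0734). Myosuppressin gained one with normexp (0.0169), a trend (0.00447) and robust moderation (0.0123), all limma adjusted p. The cause of these changes was not tested, apart from the floor, which sets dim signals to 1 value. The direction turned for BMSR against brain (-0.03, quantile), for BRFaR between stages (0.03, mean over probes), and for the highest group over the next in SPR (-0.15 with normexp, -0.42 with quantile, -0.58 with the value table, -0.56 as mean over probes) and BMSR (-0.37, mean over probes). The same 3 tissues led BMSR on 4 of 4 probes as reported but on 2 of 4 with normexp, quantile normalization or the value table. Without one or the other CC-CA replicate, with 0 residual degrees of freedom and so no test, PTSP ranged from -2.91 to -2.12 and Myosuppressin from -1.92 to -1.58 between stages, SPR from -3.08 to -1.90 and BMSR from -3.32 to -3.28 against prothoracic gland, and FMRFamide from -7.62 to -6.09 against brain. The median of all probes against prothoracic gland shifted to -0.42 with quantile normalization and -0.70 with the value table. No paired analysis was possible because the groups compared share fewer than 2 replicate numbers.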
